A study of Mus musculus with 6 samples.

Results

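The MHC class II presentation genes examined here are the 10 rows of the deposited mouse gene table named H2-Aa, H2-Ab1, H2-Eb1, Cd74, H2-DMa, H2-DMb1, H2-DMb2, H2-Oa, H2-Ob and Ciita, out of 34745 genes listed. The rule names the genes and uses none of their values, but it was written with earlier results of these data known. RNA was sequenced from 6 primary liver tumors, 3 from Prmt3f/f mice (labelled WT, numbers 7, 66 and 71) and 3 from Prmt3LKO mice (labelled Prmt3-KO, numbers 92, 93 and 94), all of them male. Every animal carried the floxed Prmt3 alleles and was 26 weeks old. All had received diethylnitrosamine (DEN, 25 mg/kg) at 2 weeks of age and CCl4 (10%, 0.5 ml/kg) from 6 weeks, a combination that injures the liver and gives rise to hepatocellular carcinoma. Prmt3LKO mice carried Alb-Cre in addition. The albumin promoter drives this Cre in hepatocytes, so that leukocytes and endothelial cells of the tumor are expected to keep Prmt3, an arginine methyltransferase. Prmt3 was not measured by cell type.

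MHC class II molecules carry peptides from internalized proteins to the cell surface, where CD4+ T cells read them. An alpha and a beta chain pair in the endoplasmic reticulum with the invariant chain (Cd74), which blocks the groove and guides the complex to endosomes. There cathepsins trim the invariant chain, H2-DM exchanges its remnant for peptide, and H2-DO restrains H2-DM. Ciita, the class II transactivator, does not bind DNA itself and is recruited to a shared promoter module by the RFX, CREB and NF-Y factors. In liver, class II molecules are known mainly from dendritic cells, B cells, macrophages including Kupffer cells, and sinusoidal endothelium, while hepatocytes carry little.

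The shared module has an X box, which RFX binds, upstream of a Y box, which NF-Y binds. RefSeq promoter windows of 300 bases (GRCm38.p6; 250 before and 50 after the gene start) were matched by symbol for 7 of the 10 genes, with 8 windows in all, and none was matched for H2-Ab1, Cd74 or Ciita. On either strand, the X box core AGCAAC stood in 14.8% of 32851 promoters and the Y box ATTGG in 37.4%. AGCAAC followed by ATTGG with 20 to 36 bases between them stood in 0.271% of promoters, and in the windows of 3 of the 7 class II genes, H2-Eb1, H2-Oa and H2-Ob. The stretches of these 3 genes and of H2-Aa are shown because they are the letters through which Ciita is known to reach its targets. They are written 5′ to 3′ on the strand of the gene, with the X box core and the Y box in capitals.
H2-Eb1, chr17:34305763-34305822, plus strand: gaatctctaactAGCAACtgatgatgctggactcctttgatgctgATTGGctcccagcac
H2-Oa, chr17:34092291-34092350, plus strand: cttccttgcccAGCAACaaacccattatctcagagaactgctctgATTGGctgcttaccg
H2-Ob, chr17:34238803-34238862, plus strand: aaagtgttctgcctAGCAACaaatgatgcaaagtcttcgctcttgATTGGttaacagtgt
H2-Aa, chr17:34287857-34287916, minus strand: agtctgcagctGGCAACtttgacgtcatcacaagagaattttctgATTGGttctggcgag

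In H2-Eb1, H2-Oa and H2-Ob the X box core began 92, 77 and 88 bases before the RefSeq start, and 27, 28 and 25 bases separated it from the Y box. H2-Aa had the same arrangement with 28 bases between and 1 mismatch in the core, A1G, with positions counted from 1 at the 5′ end of AGCAAC. Its stretch also holds TGACG, the core of the X2 element that CREB binds, and H2-Aa was the only gene with TGACG among the 8 windows, against 20.8% of all promoters. H2-DMb1 had 1 mismatch (C3T) and H2-DMb2 had 2 (G2T and C3T), each with 28 bases between. The 60-base stretches of these 2 genes were identical at 51 bases. The search with mismatches was added after the exact matches were seen. With 1 mismatch allowed in the core, 3.84% of all promoters and 5 of the 7 class II genes matched, and with 2 allowed, 19.5% and 6 genes. By the GENCODE M21 transcripts of each gene, the stretches of H2-Eb1, H2-Ob and H2-Aa lay outside the gene, that of H2-Oa reached 11 bases into its exons, that of H2-DMb1 lay wholly in an exon and that of H2-DMb2 in an intron. The starts behind the RefSeq windows of H2-DMa lay 12350 and 9664 bases upstream of the start in the deposited table, so the absence of these letters there says nothing of the deposited H2-DMa gene. These matches describe letters and not occupied sites.

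**Figure D1:**
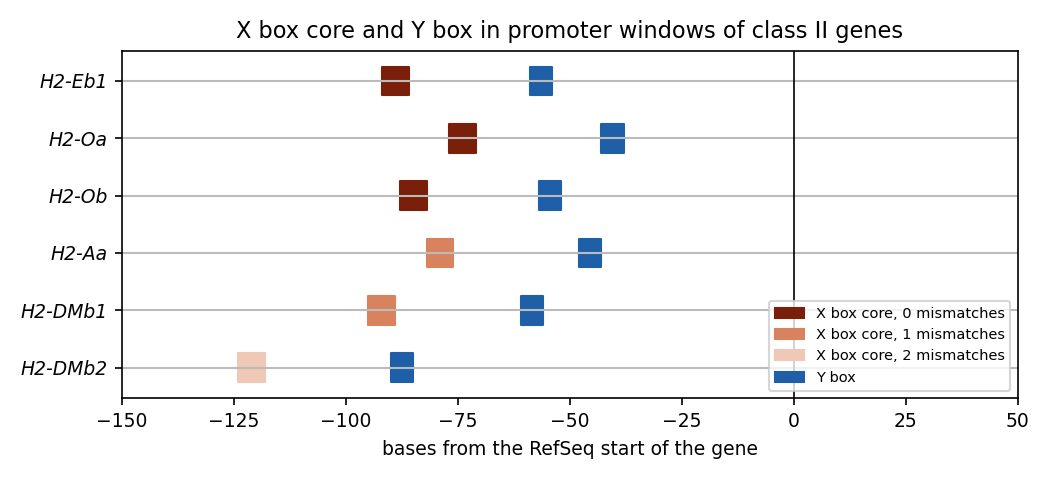
Position of the best match to the X box core and of the Y box in the promoter windows of 6 class II genes, in bases from the RefSeq start (vertical line). Shades of red give the number of mismatches to the X box core and blue is the Y box; in 5 of the genes the Y box began 43 to 61 bases before the start, and in H2-DMb2 it began 90 bases before.

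The 6 libraries held 18440244 to 27976598 counts, and 13892 genes passed the filter on low counts. Prmt3 itself was lower in every Prmt3LKO tumor, at 2.03 to 3.82 CPM (counts scaled to library size with TMM factors) against 6.60 to 10.2 CPM in Prmt3f/f tumors. All 10 class II genes passed the filter, and all 10 had a fitted level lower in Prmt3LKO tumors, as did 49.9% of all genes. Their log2 fold changes ran from -1.47 (H2-Oa) to -0.42 (H2-Ob), with a median of -0.83 against 0.00037 over all genes tested. With edgeR's quasi-likelihood test and the study's limits (adjusted p under 0.05, and a fold of 2 or above or of 0.5 or below), 0 of the 10 were called, as were 0% of all genes. DESeq2 called 0 of the 10 as lower, against 0.31% of all genes. At an unadjusted p under 0.05 in edgeR, 7 of the 10 were lower, against 4.37% of all genes, and 0 were higher, against 2.2%. In 6 of the 10, all Prmt3LKO tumors lay below all Prmt3f/f tumors, against 6.6% of all genes. None lay above, against 5.56%. The 10 genes were not 10 separate observations, because they were measured in the same 6 tumors and shared much of their variation. The count of 7 came down to 4 without Prmt3f/f tumor 7 and to 3 without Prmt3LKO tumor 92. In bulk tumor RNA, fewer class II-bearing cells and less class II RNA per cell cannot be told apart.

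**Figure D2:**
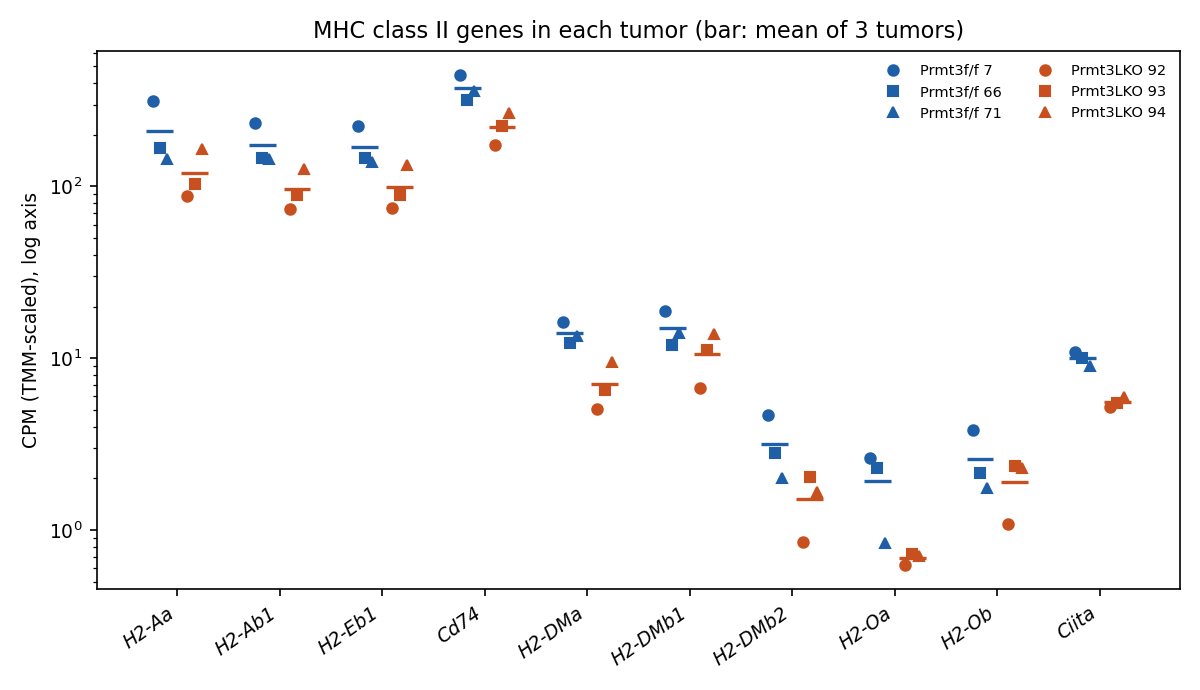
CPM (log axis) of the 10 class II genes in each of the 6 tumors, with circles, squares and triangles for the individual tumors and a horizontal bar for the mean of each group. The 3 Prmt3LKO points lie below the 3 Prmt3f/f points for H2-Ab1, H2-Eb1, Cd74, H2-DMa, H2-Oa and Ciita, and the groups overlap for H2-Aa, H2-DMb1, H2-DMb2 and H2-Ob.

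H2-Aa and H2-Ab1 encode the alpha and beta chains of the classical I-A molecule, and H2-Eb1 the beta chain of I-E. H2-Ab1 (ENSMUSG00000073421, chr17:34263209-34269418, plus strand) had 235, 146 and 145 CPM in Prmt3f/f tumors 7, 66 and 71. It had 73.9, 89.8 and 126 CPM in Prmt3LKO tumors 92, 93 and 94. Every Prmt3LKO tumor was below every Prmt3f/f tumor, with means of 96.4 ± 26.5 against 176 ± 51.7 CPM (SD, n = 3 each), and Prmt3LKO tumor 94 was the closest to the Prmt3f/f range. The log2 fold change was -0.86 with a standard error of 0.27 (edgeR adjusted p = 0.640), and p was 0.1 in a two-sided exact permutation test, where 3 tumors against 3 cannot give less.

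H2-Aa (ENSMUSG00000036594, chr17:34282744-34287827, minus strand) had 316, 168 and 145 CPM in the Prmt3f/f tumors and 88.5, 104 and 165 CPM in the Prmt3LKO tumors, in the same order. Prmt3LKO tumor 94 lay above Prmt3f/f tumor 71, so the groups overlapped (log2 fold change -0.81, standard error 0.35, edgeR adjusted p = 0.761). Without Prmt3f/f tumor 7 the log2 fold change of H2-Aa was -0.40. H2-Eb1 (ENSMUSG00000060586, chr17:34305877-34316199, plus strand) had 224, 146 and 139 CPM against 74.8, 89.4 and 133 CPM. Its groups did not overlap, although Prmt3LKO tumor 94 and Prmt3f/f tumor 71 were close (log2 fold change -0.77, standard error 0.28, edgeR adjusted p = 0.684). In all 3 chains Prmt3f/f tumor 7 was the highest library and Prmt3LKO tumor 92 the lowest.

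Cd74 (ENSMUSG00000024610, chr18:60803848-60812646, plus strand) lies on another chromosome than the chains it escorts. It was the most abundant of the 10 both in CPM and per length, with 444, 320.1 and 362 CPM in the Prmt3f/f tumors and 173, 224 and 268 CPM in the Prmt3LKO tumors. The Prmt3LKO mean was 59.1% of the Prmt3f/f mean and the groups did not overlap (log2 fold change -0.76, standard error 0.22, edgeR adjusted p = 0.606).

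Ciita (ENSMUSG00000022504, chr16:10488178-10527564, plus strand) is transcribed from separate promoters in dendritic cells, in B cells and in cells exposed to interferon-gamma, and the gene-level counts sum them. Its level was 10.9, 10.1 and 9.07 CPM in the Prmt3f/f tumors. It was 5.20, 5.50 and 5.98 CPM in the Prmt3LKO tumors. The groups stood well apart, with means of 10.0 ± 0.936 and 5.56 ± 0.393 CPM (SD, n = 3 each), and the highest tumor of a group exceeded the lowest by only 1.21-fold in Prmt3f/f and 1.15-fold in Prmt3LKO. The same ratio reached 1.62-fold and 1.70-fold for H2-Ab1. Among the 10 genes Ciita had the smallest spread within groups (pooled SD of log2 CPM 0.118, against 0.280 to 0.601 for the other 9). Its log2 fold change was -0.85 with a standard error of 0.17, the smallest of the 10 (edgeR adjusted p = 0.592). With DESeq2 its adjusted p was 0.0415 at a log2 fold change of -0.85, which did not reach the fold limit. The permutation test gave p = 0.1, again the smallest possible. GENCODE M21 places 329 exonic bases of Ciita, 3.45% of the total, over the opposite-strand gene Dexi, and whether strand was used in counting is not given in the sources used here.

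In CPM, the tumors stood in the order 7, 66 and 71 from high to low in Prmt3f/f and 94, 93 and 92 in Prmt3LKO for Ciita, H2-Aa, H2-Ab1 and H2-Eb1. The other 6 genes departed from it: tumor 71 was above 66 for Cd74, H2-DMa and H2-DMb1, and tumor 93 above 94 for H2-DMb2, H2-Oa and H2-Ob. Per length, in fragments per kilobase of gene scaled to library depth (FPKM), the ratio of Ciita to H2-Ab1 was 0.0208, 0.0308 and 0.0281 in the Prmt3f/f tumors and 0.0315, 0.0275 and 0.0213 in the Prmt3LKO tumors. The groups overlapped, with a log2 difference of 0.012 (exact permutation p = 0.8, adjusted p = 0.9 over 9 ratios), and the sign turned negative without Prmt3f/f tumor 7 (-0.15) or without Prmt3LKO tumor 92 (-0.12) or 93 (-0.016).

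H2-DMa and the 2 genes H2-DMb1 and H2-DMb2 encode the alpha chain and alternative beta chains of the peptide exchanger. H2-DMa (ENSMUSG00000037649, chr17:34135182-34139101, plus strand) had 16.2, 12.2 and 13.4 CPM in the Prmt3f/f tumors and 5.09, 6.496 and 9.55 CPM in the Prmt3LKO tumors. The groups did not overlap and the Prmt3LKO mean was near the lower fold limit (log2 fold change -0.98, standard error 0.25, edgeR adjusted p = 0.592). H2-DMb1 (ENSMUSG00000079547, chr17:34153072-34160230, plus strand) had 18.9, 11.9 and 14.0 CPM against 6.74, 11.1 and 13.9 CPM. Here Prmt3LKO tumor 94 reached the level of Prmt3f/f tumor 71 (log2 fold change -0.49, standard error 0.29, adjusted p = 0.844), and its log2 fold change was -0.25 without Prmt3LKO tumor 92 and -0.295 without Prmt3f/f tumor 7.

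H2-DMb2 (ENSMUSG00000037548, chr17:34143307-34151553, plus strand) was the scarcer beta chain, with 101, 60 and 57 counts in the Prmt3f/f tumors and 15, 45 and 33 in the Prmt3LKO tumors. The groups overlapped narrowly, at 2.004 CPM in Prmt3f/f tumor 71 and 2.03 CPM in Prmt3LKO tumor 93 (log2 fold change -1.04, standard error 0.44, edgeR adjusted p = 0.756), and the log2 fold change was -0.66 without Prmt3f/f tumor 7. The beta chain genes resemble each other: 31.4% of 31-base windows of H2-DMb1 transcripts occur in H2-DMb2 transcripts, but only 4.71% of 150-base windows, and how reads matching both were assigned is not given in the sources used here. Their separate values are therefore uncertain. Of the 9 ratios compared, that of H2-DMa to both beta chains was lower in every Prmt3LKO tumor. It was 0.555, 0.669 and 0.661 in the Prmt3f/f tumors and 0.524, 0.392 and 0.480 in the Prmt3LKO tumors (log2 difference -0.44, exact permutation p = 0.1, adjusted p = 0.45).

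H2-Oa and H2-Ob encode the chains of H2-DO, the modulator of H2-DM known chiefly from B cells. Both rested on few reads. H2-Oa (ENSMUSG00000024334, chr17:34092340-34095234, plus strand) had 57, 49 and 24 counts in the Prmt3f/f tumors and 11, 16 and 14 in the Prmt3LKO tumors, or 2.63, 2.29 and 0.844 CPM against 0.629, 0.722 and 0.704 CPM. Prmt3f/f tumor 71 lay with the Prmt3LKO tumors rather than with the other Prmt3f/f tumors, although the groups did not overlap. The log2 fold change of -1.47 was the largest of the 10 in size, with the largest standard error (0.49, edgeR adjusted p = 0.648). Of its exonic bases, 22.8% overlap the antisense gene BC051537, which itself had 0 counts in 5 tumors and 1 count in Prmt3LKO tumor 93.

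H2-Ob (ENSMUSG00000041538, chr17:34238903-34245907, plus strand) had 83, 46 and 50 counts against 19, 52 and 46. Prmt3LKO tumors 93 and 94 were within the range of the Prmt3f/f tumors, and only tumor 92 was below it (log2 fold change -0.42, standard error 0.43, edgeR adjusted p = 0.945). Without Prmt3f/f tumor 7 the log2 fold change of H2-Ob was -0.029. The ratio of H2-Ob to H2-Oa per length was 0.583, 0.376 and 0.835 in the Prmt3f/f tumors and 0.692, 1.302 and 1.316 in the Prmt3LKO tumors, which overlapped (log2 difference 0.90, exact permutation p = 0.2, adjusted p = 0.45).

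On the per-length scale, mean FPKM over all 6 tumors ran in the order Cd74 (149.7), H2-Eb1 (114), H2-Aa (64.6), H2-Ab1 (58.1), H2-DMb1 (7.73), H2-DMa (4.79), Ciita (1.49), H2-DMb2 (0.934), H2-Oa (0.599) and H2-Ob (0.415). The classical chains thus stood far above the exchanger, and the exchanger above its modulator. Neighbours in this order were often within their spread. In Prmt3f/f tumors H2-Aa had 82.9 ± 38.5 and H2-Ab1 75.4 ± 23.8 FPKM, and H2-Oa had 0.885 ± 0.440 and H2-Ob 0.479 ± 0.214 FPKM (SD, n = 3). In Prmt3LKO tumors the last pair stood in the opposite order, at 0.312 ± 0.0358 and 0.352 ± 0.142 FPKM.

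Within tumors the classical genes kept close proportions. The ratio of H2-Eb1 to H2-Ab1 per length was 1.89, 1.98 and 1.90 in the Prmt3f/f tumors and 2.01, 1.98 and 2.10 in the Prmt3LKO tumors. It was higher in every Prmt3LKO tumor, by 0.078 on the log2 scale (exact permutation p = 0.1, adjusted p = 0.45). The groups barely parted, at 1.976 in Prmt3f/f tumor 66 and 1.979 in Prmt3LKO tumor 93. On log2(FPKM + 1) the difference was 0.069 (exact permutation p = 0.2). The ratio of H2-Aa to H2-Ab1 ran from 0.920 to 1.24 in Prmt3f/f and from 1.06 to 1.21 in Prmt3LKO tumors, and that of Cd74 to the sum of the 3 chains from 0.538 to 0.767 and from 0.582 to 0.724. The ratio of the H2-DM genes to the 3 chains ran from 0.0499 to 0.0650 and from 0.0520 to 0.0679. These last 3 ratios overlapped between genotypes (exact permutation p = 0.6, 0.9 and 0.7), and the sign of each difference turned when 1 tumor was left out. The adjusted p over the 9 ratios was 0.9 for each of these 3.

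The mean profile of H2-Aa, H2-Ab1, H2-Eb1 and Cd74 over the tumors was 0.86, 0.18 and 0.15 in Prmt3f/f tumors 7, 66 and 71 and -0.75, -0.47 and 0.027 in Prmt3LKO tumors 92, 93 and 94, as log2 CPM centred on each gene's mean. Likeness to it was measured as the root mean square difference of centred log2 CPM over the 6 tumors. H2-Eb1 and H2-Ab1 were 0.028 and 0.032 from it, and H2-Aa and Cd74 were 0.13 and 0.14 from it, all 4 being part of the mean. Ciita was 0.24 away and H2-Oa 0.48. Among 12134 other genes with a mean of at least 1 CPM, predicted genes left out, the nearest were Epsti1 (0.088), Klra2 (0.096), Gpr65 (0.12), Dock10 (0.12), Slfn1 (0.12), Rgs10 (0.14), Clec12a (0.14), Rpusd1 (0.14), Ucp2 (0.14) and Nmral1 (0.14). The first 5 of these were nearer than H2-Aa and Cd74. Epsti1, an interferon-inducible gene, had 11.8, 7.51 and 6.19 CPM in the Prmt3f/f tumors and 3.94, 4.56 and 6.48 CPM in the Prmt3LKO tumors. Clec12a, a C-type lectin receptor of myeloid cells, had 17.7, 13.4 and 10.5 against 7.26, 7.67 and 10.2 CPM. These genes were picked for this likeness, so that it is a description only.

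The class II genes on chromosome 17 are interspersed with genes of other function, which were compared as positional neighbours. The 8 class II genes there had log2 fold changes from -1.47 to -0.42 with a median of -0.84. The 11 neighbours tested had a median of 0.069, with 4 lower and 7 higher. Lying between H2-Oa and H2-Eb1 are Tap1 and Tap2, the peptide transporter of the class I pathway, Psmb8 and Psmb9, subunits of the immunoproteasome, and Brd2, a bromodomain protein. Tap2 (-0.05), Psmb8 (-0.035), Psmb9 (0.035) and Brd2 (0.076) had log2 fold changes near 0, and their groups overlapped. Tap1 was the exception among the neighbours, with 49.7, 42.2 and 51.3 CPM in the Prmt3f/f tumors and 21.3, 33.0 and 35.1 CPM in the Prmt3LKO tumors (log2 fold change -0.68, standard error 0.21, edgeR adjusted p = 0.624). H2-K1, a class I heavy chain gene at the edge of the region, was at 0.11. H2-Eb2, a further beta chain gene next to H2-Eb1, had 1.15, 0.746 and 0.949 CPM against 0.114, 0.677 and 0.302 CPM, so that every Prmt3LKO tumor was below every Prmt3f/f tumor (log2 fold change -1.34, standard error 0.60, edgeR adjusted p = 0.771). It rested on 2, 15 and 6 counts in the Prmt3LKO tumors, and its log2 fold change was -2.14 without tumor 93. The E alpha pseudogene H2-Ea-ps had 0 counts in all tumors, which allows up to 0.107 to 0.163 CPM in single libraries. These floors cover counting error only.

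**Figure D3:**
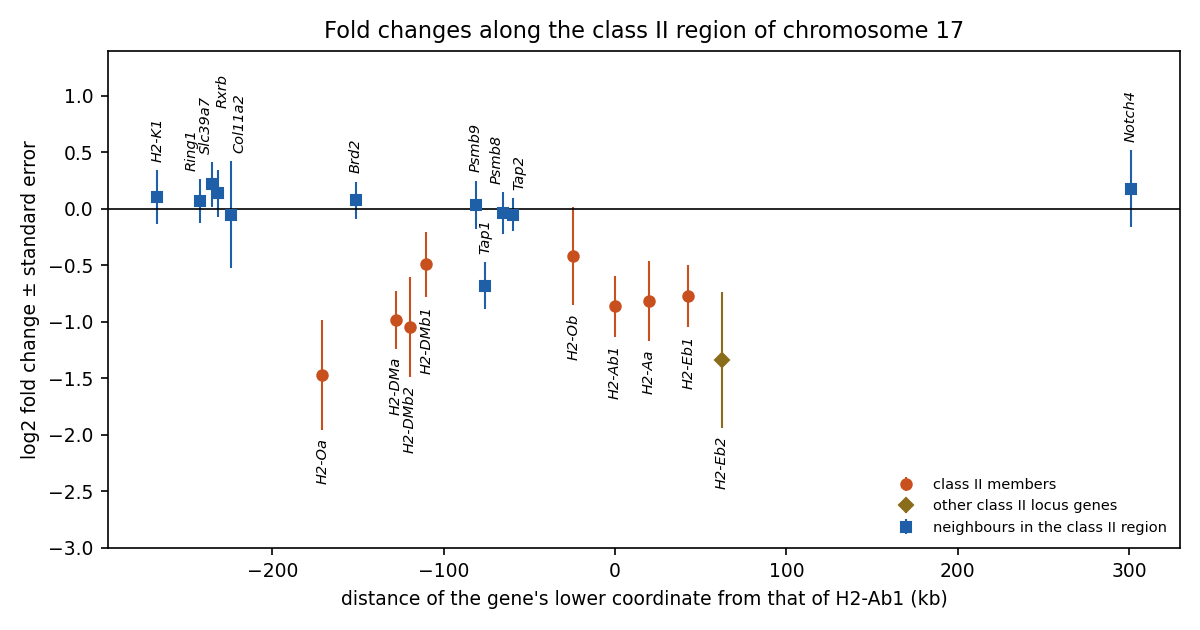
Log2 fold change (Prmt3LKO against Prmt3f/f) with its standard error, against distance in kb from H2-Ab1, for 8 class II genes (circles), H2-Eb2 (diamond) and 11 neighbours (squares) on chromosome 17. All class II genes lie below 0, while the 5 neighbours between H2-Oa and H2-Eb1 lie from -0.68 (Tap1) to 0.076 (Brd2).

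The factors that hold Ciita at the promoter had a median log2 fold change of -0.00096, beside -0.83 for the class II genes. Of the 7 genes of the enhanceosome (Rfx5, Rfxap, Rfxank, Nfya, Nfyb, Nfyc and Creb1), 4 were lower and 3 higher, where 49.9% of all genes were lower. None reached an unadjusted p under 0.05, where 4.37% of all genes were lower and 2.2% higher. None had groups apart, where 6.6% of all genes had Prmt3LKO tumors below and 5.56% above. With 7 genes, counts of 0 are near these shares and show nothing particular to the enhanceosome. Rfx5, the largest RFX subunit, had 11.4, 7.88 and 9.88 CPM against 7.49, 7.35 and 7.94 CPM (log2 fold change -0.36, edgeR adjusted p = 0.801). Creb1 was the most variable, from 2.82 to 18.1 CPM within Prmt3f/f tumors alone.

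The genes that induce Ciita are those of interferon-gamma signalling and a few lineage factors. Interferon-gamma acts through Ifngr1, Ifngr2, Jak1, Jak2 and Irf1, while Irf4, Irf8 and Spi1 are lineage factors of lymphoid and myeloid cells. Of the 8 tested, 7 had a fitted level below Prmt3f/f and 1 (Ifngr1) above, and the median log2 fold change was -0.36. Of these, 2 had an unadjusted p under 0.05 and a lower level (4.37% of all genes), and 3 had all Prmt3LKO tumors below all Prmt3f/f tumors (6.6% of all genes). None was called. Irf8 had 22.8, 22.9 and 28.6 CPM in the Prmt3f/f tumors and 13.9, 20.4 and 18.0 CPM in the Prmt3LKO tumors (log2 fold change -0.51, edgeR adjusted p = 0.684). Spi1 (PU.1) had 17.5, 15.4 and 12.9 against 11.3, 9.93 and 12.4 CPM (log2 fold change -0.45, edgeR adjusted p = 0.734). Both stood lower in all Prmt3LKO tumors, as did Jak2 (-0.30). Irf1 had the largest log2 fold change in size of the 8 (-0.57, edgeR adjusted p = 0.791), but its groups overlapped. It had 24.14, 26.73 and 34.84 CPM in the Prmt3f/f tumors and 28.35, 14.98 and 14.42 CPM in the Prmt3LKO tumors. Ifng was at 0.0923 to 0.327 CPM in the Prmt3f/f tumors and at 0 to 0.201 CPM in the Prmt3LKO tumors, too few counts for the filter.

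Genes for invariant chain cleavage and antigen processing were mostly level, with 7 of 11 lower, 4 higher and a median log2 fold change of -0.047. At an unadjusted p under 0.05, 2 were lower, against 4.37% of all genes. The exceptions were Ctss and Ifi30. Ctss encodes cathepsin S, which makes the late cut in the invariant chain in professional antigen-presenting cells, and had 152, 149 and 75.9 CPM against 65.3, 58.0 and 78.4 CPM. Its groups overlapped, with Prmt3f/f tumor 71 as low as the Prmt3LKO tumors (log2 fold change -0.90, standard error 0.28, edgeR adjusted p = 0.624). Ifi30 (GILT), a thiol reductase of the same compartments, had 34.4, 30.6 and 28.3 against 22.5, 21.3 and 23.8 CPM without overlap (log2 fold change -0.46, standard error 0.14, adjusted p = 0.606). The broadly expressed cathepsins Ctsb, Ctsd, Ctsl and Ctsz had log2 fold changes from -0.022 to 0.063. On the T cell side, the class II coreceptor Cd4 had 5.82, 3.87 and 3.97 CPM against 0.743, 3.79 and 0.603 CPM (log2 fold change -1.39, standard error 0.66, adjusted p = 0.774). Prmt3LKO tumor 93 nearly reached the Prmt3f/f level of Cd4, and the inhibitory class II receptor Lag3 overlapped between groups (-0.37). The mean of both log2 fold changes was -0.88, and it was -1.67 without that tumor.

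**Figure D4:**
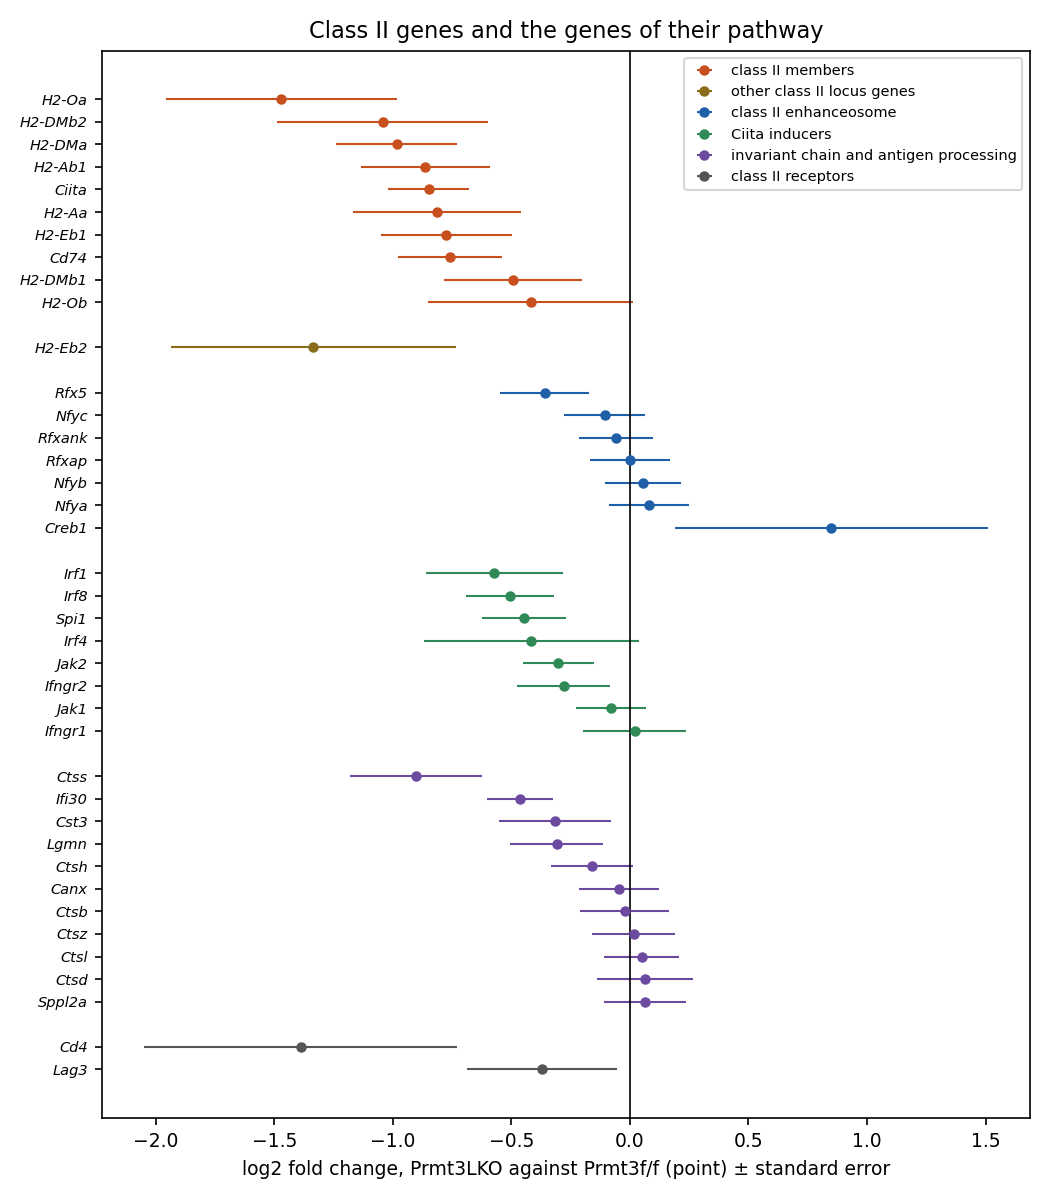
Log2 fold change (point) and standard error (bar) for the 10 class II genes and for the tested genes of their pathway, ordered within each list. The 10 class II genes lie from -1.47 to -0.42, whereas the enhanceosome and antigen processing genes lie nearer 0 than each of them, apart from Creb1 (0.85), Ctss (-0.90) and Ifi30 (-0.46).

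Markers of leukocytes, the cells best known for class II, were lower alongside the class II genes. The summed class II level was 822 to 1277 CPM in the Prmt3f/f tumors and 430.2 to 726 CPM in the Prmt3LKO tumors. All 10 dendritic cell markers were lower, and 4 of them had an unadjusted p under 0.05. Over all genes, 49.9% were lower, and 4.37% were lower at that p. The sum of the dendritic cell markers ran from 31.3 to 41.1 CPM against 14.9 to 25.3 CPM. All 8 pan-leukocyte markers were lower, 6 with an unadjusted p under 0.05. Their sum ran from 273 to 286 CPM against 159.8 to 214 CPM. Some members of these 2 lists were lower only slightly, with log2 fold changes of -0.0033 for Lcp1 (pan-leukocyte) and -0.083 for Cd209a (dendritic cell). Of the other lists, 5 of 6 B cell markers tested were lower (sum over all 8 listed 10.9 to 12.6 against 8.17 to 10.4 CPM). Lower too were all 12 macrophage markers (719.8 to 866 against 499 to 722 CPM) and all 8 recruited monocyte markers (193 to 804 against 139 to 198 CPM). The same held for all 9 T cell markers (25.4 to 33.0 against 6.00 to 17.5 CPM). Median log2 fold changes of the B cell, macrophage, recruited monocyte and T cell markers were -0.44, -0.42, -1.56 and -1.08. Those of dendritic cell and pan-leukocyte markers were -0.84 and -0.79. In the same order, 0, 5, 4 and 6 of them were lower at an unadjusted p under 0.05. The macrophage and recruited monocyte sums overlapped between genotypes, and Lyz2 made up most of the latter (160 to 675 CPM in Prmt3f/f tumors). Macrophage log2 fold changes were uneven, with Clec4f at -0.052, Cd5l at -0.091, Folr2 at -0.12 and Marco at -2.28. Sinusoidal endothelial and hepatocyte markers were not shifted as the leukocyte lists were: 5 of 8 and 3 of 10 were lower, none with an unadjusted p under 0.05, and the medians were -0.083 and 0.20. No marker of these lists was at 0 in all tumors. Some rested on few counts in Prmt3LKO tumors 92, 93 and 94, such as Xcr1 (9, 3 and 9), Ms4a1 (3, 12 and 12) and Cd3e (3, 54 and 32).

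The 4 abundant class II genes (H2-Aa, H2-Ab1, H2-Eb1 and Cd74) were therefore set against each marker list within the same tumor, as a difference of mean log2 CPM. Against dendritic cell markers this difference was 6.43, 6.00 and 6.46 in the Prmt3f/f tumors and 6.45, 6.05 and 6.53 in the Prmt3LKO tumors. The genotypes differed by 0.047 (exact permutation p = 0.6), where a single tumor left out moved this between -0.10 and 0.19 and a log2(FPKM + 1) scale turned it to -0.55 (exact permutation p = 0.2). Against pan-leukocyte markers the difference was 3.23, 2.73 and 2.93 in the Prmt3f/f tumors and 2.82, 2.60 and 3.16 in the Prmt3LKO tumors, a change of -0.099 (exact permutation p = 0.7, between -0.25 and 0.035 with a single tumor left out). The change against B cell, macrophage, recruited monocyte and T cell markers was -0.30, -0.24, 0.39 and 0.40 (exact permutation p = 0.4 to 0.6). On log2(FPKM + 1) it was -0.71, -0.33, -0.21 and -0.18 (exact permutation p = 0.2 to 0.6), so that the last 2 turned sign. On the log2 CPM scale, the class II level set against each of these 6 lists overlapped between genotypes, although the overlap does not show that it was the same.

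Against sinusoidal endothelial markers the difference was 2.62, 1.65 and 1.64 in the Prmt3f/f tumors and 0.797, 1.32 and 1.62 in the Prmt3LKO tumors. Every Prmt3LKO tumor was lower, by 0.72 on average (exact permutation p = 0.1), and Prmt3LKO tumor 94 nearly met the Prmt3f/f range. The adjusted p over the 7 lists was 0.7 for each. The part that these cell types play in the lower class II level was not tested.

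**Figure D5:**
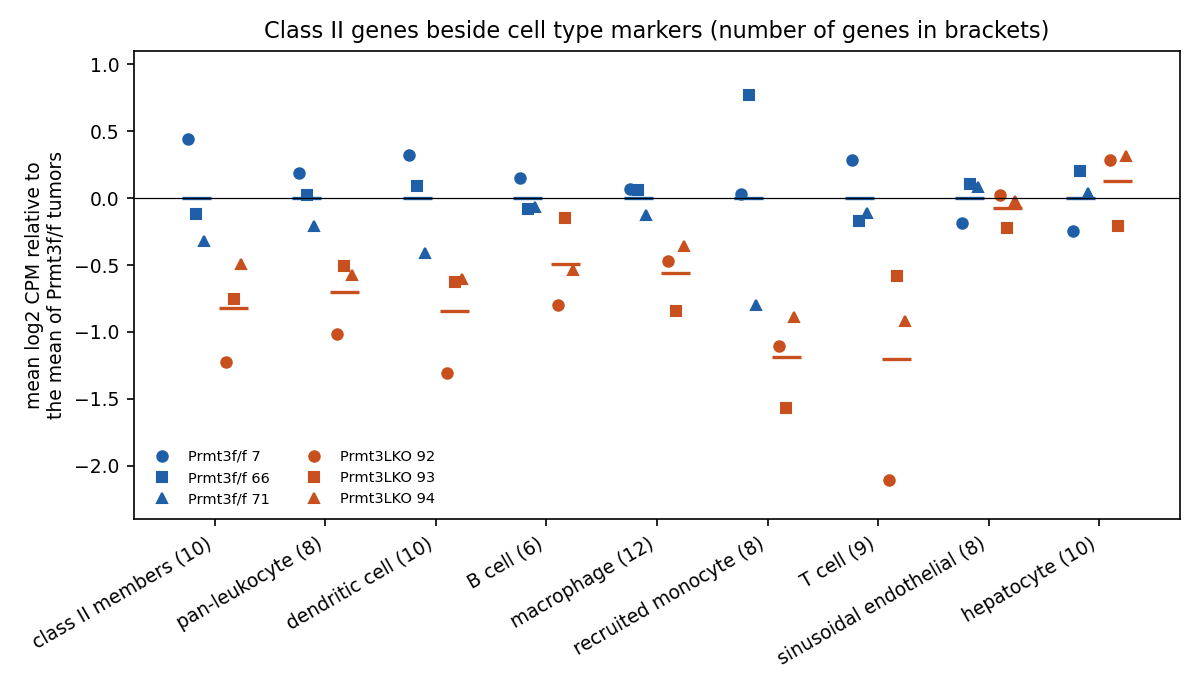
Mean log2 CPM relative to the mean of the Prmt3f/f tumors for the 10 class II genes and 8 marker lists, with a point for each tumor, a bar for each group mean and the number of genes in brackets. Class II genes lie between -1.22 and -0.49 in the Prmt3LKO tumors, dendritic cell markers between -1.31 and -0.61, and sinusoidal endothelial markers between -0.22 and 0.020.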

How the data were processed

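RNA from 6 liver tumors was sequenced as paired ends. Per the labels, the submitters' processing notes name HISAT2 2.0.4, StringTie 1.3.0 and GRCm38. The counting tool, annotation release and use of strand are not given in the sources used here. The authors deposited raw read counts per gene and FPKM values for each tumor in a single table, and all 12 columns were used. The deposited FPKM were used for ratios between genes, for the order of genes by mean FPKM, and for the log2(FPKM + 1) alternative. Columns were matched to tumors by the number in their names.

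Counts were filtered with filterByExpr (minimum count 10, minimum total 15), TMM-scaled and tested with edgeR 4.0.16 (R 4.3.3), quasi-likelihood test, Benjamini-Hochberg over 13892 genes. DESeq2 1.42.0 was an alternative. log2 CPM used a prior count of 2. A two-sided exact permutation test compared single values. The procedure was tested on simulated data with larger fold changes than those of the class II genes, so this does not show how often changes of their size are found. The labels do not say whether the tumors of a group came from separate animals, and p-values cover only the spread between these 6 tumors. Depth was 18440244 to 27976598 counts, so that 0 counts allows 0.107 to 0.163 CPM.

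The class II genes, the pathway and marker lists, and the tests were chosen with earlier results of these data known. Of 131 list symbols, 126 were found, and 1 further gene of the Ciita inducer list is not reported here. Named genes were the 10 members, the genes of the lists, and the 10 nearest profiles. The alternatives were DESeq2, scaling by library size alone, keeping genes with any count, log2(FPKM + 1), all markers with a count, and each tumor left out. Promoters came from RefSeq (GRCm38.p6), and overlaps from GENCODE M21.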

Additional observations from a re-analysis of the deposited data

How the results depend on the processing

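Of the 10 class II genes, 0 were called under every setting run, and the fitted level was lower in Prmt3LKO tumors for all 10 under each. The median log2 fold change of the 10 ran from -1.07 to -0.62 with a tumor left out, and the genes whose groups did not overlap numbered 6 to 8. That number was 6 with all tumors, and leaving a tumor out can only keep or raise it, so its range is no test of it. The share of all genes was not computed with a tumor left out. Those at an unadjusted p under 0.05 numbered 3 to 8 (4 without Prmt3f/f tumor 7, 3 without Prmt3LKO tumor 92). Ciita passed an adjusted p of 0.05 with DESeq2 alone (0.0415). With a tumor left out, H2-Eb2 ran from -2.14 to -0.94 and the median of Cd4 and Lag3 from -1.67 to -0.60. On log2(FPKM + 1), which compresses genes at low FPKM, the sign turned for the H2-DO to H2-DM ratio (0.28) and for class II against dendritic cell (-0.55), recruited monocyte (-0.21) and T cell (-0.18) markers. With a tumor left out, the sign also turned within these ranges of log2 differences: H2-Aa to H2-Ab1 from -0.024 to 0.19, Cd74 to the 3 chains from -0.092 to 0.16, H2-DO to H2-DM from -0.56 to 0.022, Ciita to H2-Ab1 from -0.15 to 0.17, H2-DM to the 3 chains from -0.037 to 0.17, and class II against dendritic cell (-0.10 to 0.19), recruited monocyte (-0.10 to 0.67) and pan-leukocyte markers (-0.25 to 0.035). The cause was not tested. Of the leave-out values recomputed, 197 were classed as unchanged, 15 as reversed in sign and 4 as moved. Of the other values recomputed, 77 were classed as unchanged, 4 as reversed and 1 as stronger. For a count, unchanged meant a similar count, and for a list median a shift smaller than the pooled SD within groups. For single genes and permutation-tested differences it meant the same sign and side of p = 0.05. Permutation p could not fall below 0.05, so that side was fixed in advance. A list median could change sign and still be classed so, as that of the enhanceosome did (-0.00096, and 0.036 without Prmt3f/f tumor 71). No paired analysis was possible because the groups share no replicate numbers. With 3 tumors a group, no permutation test could go below p = 0.1, or 0.2 with a tumor left out, and H2-DMb2, H2-Oa and H2-Ob rested on 11 to 101 counts a tumor.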
